A study of Mus musculus with 24 samples.

Results

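The response to low oxygen of neural stem cells cultured from the fetal mouse midbrain was set against that of cells from the fetal cortex, both labelled 13 d. The response of a region is the log2 value at 3% O2 minus that at 21% O2, and the quantity tested is the midbrain response minus the cortex response, so that a positive difference means a more positive response in midbrain. It used 12 of the 24 arrays of the series, chosen by the labels alone, and the 23410 of 28856 probe sets that carry a gene symbol.

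All cultures came from C57Bl/6 mice at embryonic day 14 and were kept in expansion medium after dissection. The 4 groups were midbrain (mesencephalon) at 3% O2, midbrain at 21% O2, cortex at 3% O2 and cortex at 21% O2, each labelled 13 d and each with 3 arrays. RNA of 1 culture well was hybridised to each whole-transcript array. No cell was sorted and no gene was altered, so the cultures are mixed primary populations of each region. Whether the replicate arrays stand for separate cultures or litters is not in the labels, so p-values cover the scatter among these arrays, which could be technical.

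Oxygen sensing in animal cells runs through the hypoxia-inducible factors (HIF), whose alpha subunits are hydroxylated and degraded when oxygen is ample. At low oxygen the alpha subunit pairs with ARNT, binds the core letters ACGTG or GCGTG in DNA and raises genes of glycolysis, lactate export, mitophagy, angiogenesis and its own hydroxylases. Neural stem cells are routinely grown in room air, far above the oxygen tension of the fetal brain, and lowered oxygen is known to affect their proliferation and survival.

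The arrays were alike in scale, with log2 values from 4.66 to 14.49, medians from 7.36 to 7.41 and Pearson correlations within groups from 0.995 to 0.999. Replicate 2 of midbrain at 3% O2 stood farthest from its group. By the labels, the midbrain arrays belong to array run 1 and the cortex arrays to run 2, so each response was measured within 1 run, but array run and region cannot be told apart in the difference. The cortex time label also sat oddly with the data: all 6 cortex arrays labelled 13 d correlated better with midbrain at 48 h than with midbrain at 13 d. The cortex arrays labelled 48 h did the reverse, with correlations of group means from 0.982 to 0.990 with midbrain at 13 d and from 0.917 to 0.930 with midbrain at 48 h. Midbrain at 48 h and all cortex arrays belong to run 2. The mean log2 value of 24 neuron markers lay between 10.83 and 10.90 in the 6 cortex arrays and between 8.17 and 8.38 in the 6 midbrain arrays, against group means of 11.47 and 11.50 in midbrain at 48 h and 8.66 and 8.93 in cortex labelled 48 h (3% and 21% O2). The mean of 11 forebrain markers lay between 9.92 and 9.98 in cortex and between 7.00 and 7.16 in midbrain. In cortex labelled 48 h it was only 7.43 and 7.82, near the 7.77 and 7.85 of midbrain at 48 h (3% and 21% O2). The mean of 16 midbrain markers was barely higher in midbrain (7.20 to 7.34) than in cortex (6.86 to 7.03). It lay far below its 8.60 and 8.62 in midbrain at 48 h. The difference was therefore also computed with the cortex arrays labelled 48 h in place of those labelled 13 d, called the 48 h version below, and its value is given for each printed difference whose call it ends or makes. The share of the culture's age in the difference was not tested.

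The midbrain response was much broader than the cortex response. In midbrain 5584 probe sets passed limma's adjusted p of 0.05, which is 23.9% of those tested, with 2614 higher (11.2%) and 2970 lower (12.7%) at 3% O2. In cortex 142 passed (0.607%), with 127 higher (0.543%) and 15 lower (0.0641%). The difference of the responses passed for 3162 probe sets (13.5%), 1570 more positive in midbrain (6.71%) and 1592 more negative (6.8%). Below, a response or a difference is called when it passed this threshold.

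Most called differences lay where cortex had no called response: in 2946 of the 3162 (93.2%) the midbrain response alone was called, in 28 the cortex response alone, in 31 both and in 157 neither. These shares describe how the difference is made up, since it uses the same arrays. Across the 23410 probe sets the responses had a Pearson correlation of 0.18 and a Spearman correlation of 0.06, over probe sets that share arrays and are not independent. The spread of the responses over probe sets was 0.31 (SD, log2) in midbrain and 0.13 in cortex, and the median response was -0.01 in each region.

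**Figure D1:**
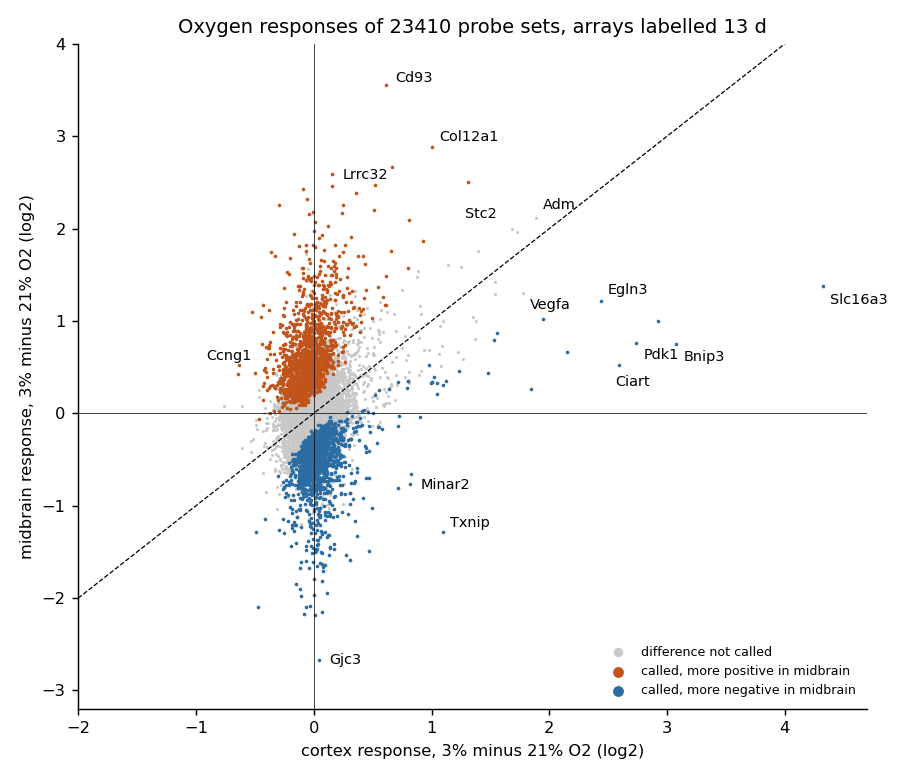
Response to 3% against 21% O2 in cortex (x axis, log2) and midbrain (y axis, log2) for 23410 probe sets, with the dashed line marking equal responses. Orange and blue points have a called difference. Most of them lie along the vertical axis, where the cortex response is near 0, and a separate arm of hypoxia genes with large cortex responses (Slc16a3, Bnip3, Pdk1, Ciart, Egln3) runs to the right under the line.

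The largest cortex responses among the named genes were those of Slc16a3, Bnip3, Pdk1, Ciart and Egln3, and each of the 5 responded less in midbrain. Of 21 measured genes of glycolysis and glucose or lactate transport, 14 rose in midbrain and 14 in cortex, 11 of them in both, and none fell. Over all 19938 genes (1 probe set each), 25% were called in midbrain (11.7% higher, 13.3% lower) and 0.572% in cortex (0.497% higher, 0.0752% lower). At an unadjusted p under 0.05 in limma, 718 of the 19938 were higher and 751 lower in cortex. The difference was more negative in midbrain for 9 of the 21 and more positive for 2, where over all genes 14.2% were called, 7.22% more negative and 7% more positive. The median response of the list was 0.44 in midbrain and 0.91 in cortex, with a median difference of -0.23, against -0.01 over all genes.

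Slc16a3, the lactate exporter MCT4, had the largest negative difference. Its log2 values were 7.47, 7.71 and 7.64 in cortex at 21% O2 and 11.86, 11.99 and 11.94 at 3% O2, a rise of 4.32 ± 0.30 (SE, n = 3 per group, adjusted p = 2.32e-07, limma) or 20.0-fold. In midbrain the values were 10.84, 11.12 and 11.16 at 21% O2 and 12.40, 12.38 and 12.48 at 3% O2, a rise of 1.38 ± 0.30. The groups did not overlap in either region, and the midbrain arrays at 21% O2 stood nearer to the cortex arrays at 3% O2 than to those at 21% O2. The difference was -2.94 ± 0.42 (adjusted p = 0.000109, limma), and 0.29 in the 48 h version, not called.

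Bnip3, a receptor that targets mitochondria for autophagy, had the same shape. Cortex went from 8.77, 9.15 and 8.90 at 21% O2 to 11.87, 12.12 and 12.06 at 3% O2, a rise of 3.08 ± 0.30. Midbrain stood at 11.88, 12.06 and 12.13 at 21% O2 and at 12.77, 12.72 and 12.82 at 3% O2; its response of 0.75 ± 0.30 was not called (adjusted p = 0.0816, limma), although the arrays did not overlap. The difference was -2.33 ± 0.42 (adjusted p = 0.000915), and a dimmer probe set of Bnip3 gave -1.92. The 48 h version gave 0.23, not called.

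Pdk1, the kinase that shuts pyruvate out of the mitochondrial citric acid cycle, rose from 7.90, 8.14 and 7.86 to 10.61, 10.77 and 10.72 in cortex (2.74 ± 0.23). It rose from 10.55, 10.74 and 10.75 to 11.43, 11.49 and 11.39 in midbrain (0.76 ± 0.23), a difference of -1.98 ± 0.32 (adjusted p = 0.000358, limma). Ciart, a transcriptional repressor of the circadian clock, rose from 7.86, 7.53 and 7.38 to 10.27, 10.19 and 10.09 in cortex (2.59 ± 0.24), whereas in midbrain it had 9.58, 9.98 and 9.96 at 21% O2 and 10.33, 10.54 and 10.23 at 3% O2, a response that was not called (0.53 ± 0.24, adjusted p = 0.132). The difference for Ciart was -2.07 ± 0.34 (adjusted p = 0.000356), and in the 48 h version neither Ciart (-0.42) nor Pdk1 (0.10) was called. For Pdk1 and Ciart every midbrain array at 21% O2 lay above every cortex array at 21% O2.

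Among the glycolysis and transport genes, 10 of the 21 had no called difference. Pfkl, the liver isoform of phosphofructokinase, had a difference of -1.58 ± 0.26, with a rise of 1.84 in cortex and an uncalled 0.26 in midbrain. Tpi1 (triosephosphate isomerase) differed by -1.04 ± 0.24, Pgk1 (phosphoglycerate kinase) by -0.67 ± 0.19 and Aldoa (aldolase A) by -0.52 ± 0.12; of these 3, which like Stc1 and Pfkp below were chosen after their values were seen, Aldoa also rose in midbrain. Egln3, the HIF prolyl hydroxylase that is itself induced by HIF, rose by 2.44 ± 0.21 in cortex and by 1.22 ± 0.21 in midbrain, a difference of -1.22 ± 0.30 (adjusted p = 0.0093, limma). Slc2a1, the main glucose transporter, rose in both regions (1.95 and 1.02) and differed by -0.92 ± 0.29, P4ha1, a collagen prolyl hydroxylase, by -0.69 ± 0.22 and Ldha, lactate dehydrogenase A, by -0.45 ± 0.15. The last 3 passed narrowly: the call was lost in 10, 10 and 12 of the 12 refits that left out 1 array, and for Pgk1 in 5, with adjusted p up to 0.0844, 0.0959, 0.113 and 0.0564 respectively. In the 48 h version none of these 8 genes was called, with -0.25 for Pfkl, -0.03 for Tpi1 and for Pgk1, 0.05 for Aldoa, 0.13 for Egln3, 0.47 for Slc2a1, 0.16 for P4ha1 and 0.21 for Ldha.

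Most genes that rose in cortex, with or without a called difference, stood lower there than in midbrain at both oxygen levels. Of the 99 genes that rose in cortex, 74 (74.7%) had a higher mean in midbrain than in cortex at 21% O2. The share over all 19938 genes was 57.9%. At 3% O2 the midbrain mean was higher for 76 of the 99, and for 11547 of 19938 over all genes. Midbrain at 21% O2 stood above cortex at 3% O2 for 46 of the 99. That share was smaller than over all genes, where it held for 12026 of 19938. The median level of the 99 genes was 8.82 in cortex and 9.86 in midbrain at 21% O2, and 9.87 and 10.3 at 3% O2. These levels compare arrays of different runs, and the genes were chosen by the cortex response, so they are a description without a test.

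**Figure D2:**
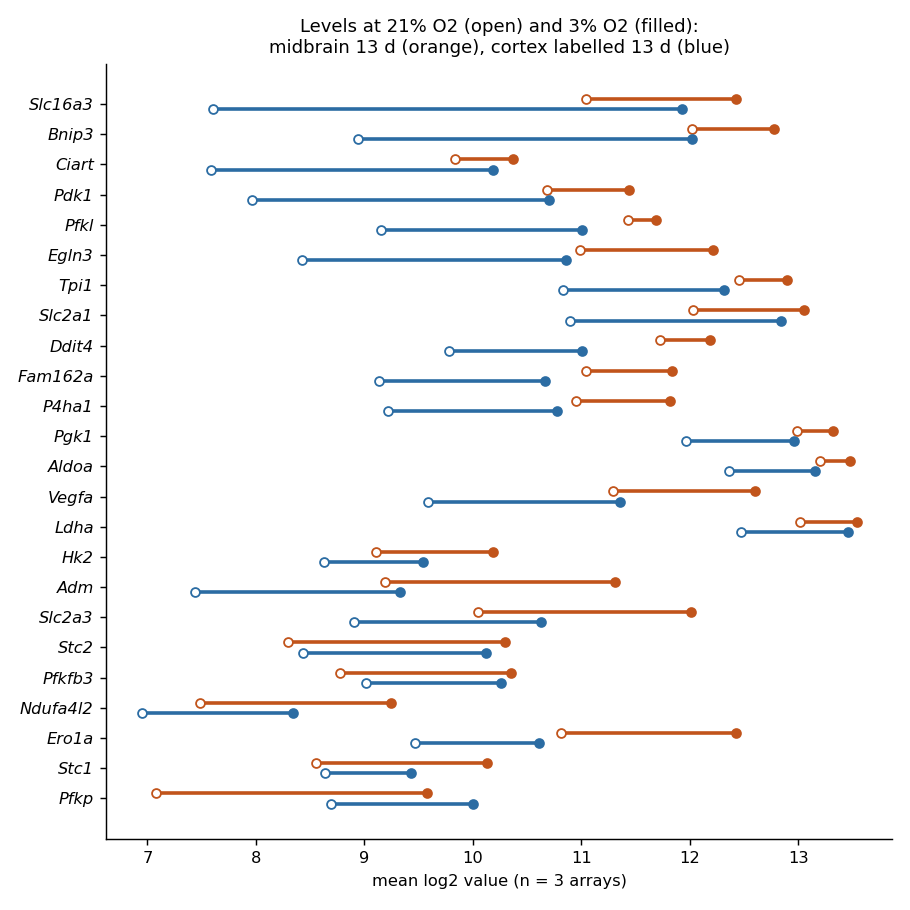
Mean log2 value (x axis, n = 3 arrays) at 21% O2 (open) and 3% O2 (filled) of 24 oxygen-responsive genes in midbrain (orange) and cortex (blue), ordered by the difference of responses with the most negative at the top. For the upper genes the cortex line starts far to the left of the midbrain line and ends near it; for Adm, Slc2a3 and Stc2 in the lower part the lines have similar length. Levels of different genes are not comparable.

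Other HIF-responsive genes rose in both regions without a called difference in this fit. Adm, which encodes the vasodilator peptide adrenomedullin, went from 8.92, 9.30 and 9.36 to 11.33, 11.26 and 11.33 in midbrain and from 7.36, 7.65 and 7.30 to 9.19, 9.36 and 9.42 in cortex. The rises were 2.11 ± 0.16 and 1.89 ± 0.16, and the difference of 0.22 ± 0.23 was not called (95% interval -0.25 to 0.70), but the 48 h version gave a called 0.96 (adjusted p = 0.0149, limma). No array overlapped between oxygen levels in either region.

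The other shared rises, midbrain first, were 1.96 and 1.72 for the glucose transporter gene Slc2a3, 2.00 and 1.69 for the secreted glycoprotein gene Stc2, 1.75 and 1.39 for the mitochondrial gene Ndufa4l2, 1.30 and 1.78 for Vegfa, the vascular endothelial growth factor, and 1.29 and 1.54 for Prelid2. None of these differences was called (adjusted p from 0.291 to 0.776, limma), which does not show that the regions acted alike. The difference of Vegfa (-0.48) was called in the fit of the 12 compared arrays (adjusted p = 0.00424, limma). The oxidoreductase gene Ero1a, too, rose in both (1.61 and 1.14) without a called difference (0.47 ± 0.22), which was called in that fit (adjusted p = 0.0287) and with array weights (0.50, adjusted p = 0.0136). In all, 71 probe sets rose in both regions, which is 55.9% of those that rose in cortex and 2.72% of those that rose in midbrain. Of these, 47 had no called difference, 18 rose less in midbrain and 6 rose more. Among the last, Pfkp, the platelet isoform of phosphofructokinase, rose by 2.50 ± 0.21 in midbrain and 1.31 ± 0.21 in cortex (difference 1.19 ± 0.30), and Stc1 by 1.57 and 0.80 (0.77 ± 0.18). In the 48 h version Pfkp kept its call (1.42) and Stc1 did not (0.10).

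The list of 41 other HIF targets therefore split: 29 rose in midbrain and 21 in cortex, 15 in both, and the difference was more positive for 12 and more negative for 10, with a median of 0.19. The counts were 16 and 15 in the fit of the 12 compared arrays and 7 and 1 in the 48 h version. Its 3 smallest p-values all belonged to midbrain rises. Tfrc, the transferrin receptor for iron uptake, rose by 1.05 ± 0.09 in midbrain and measured -0.09 ± 0.09 in cortex, a difference of 1.14 ± 0.13 (adjusted p = 7.18e-06, limma). Hilpda, a lipid droplet protein gene, differed by 1.00 ± 0.16, and Epo (erythropoietin) by 0.50 ± 0.08 at levels between 5.45 and 6.19, near the bottom of the scale.

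Of the 16 HIF subunits and regulators, the difference was more positive for 2 and more negative for 2 (25% called, 14.2% over all genes). Hif3a, an alpha subunit gene, rose by 1.21 ± 0.15 in midbrain with 0.08 ± 0.15 in cortex (difference 1.13 ± 0.22), and Arnt2, a partner subunit gene, fell by 0.43 in midbrain with 0.00 in cortex (difference -0.44 ± 0.11). Hif3a kept its call in the 48 h version (0.87) and Arnt2 did not (-0.07). Hif1a mRNA, whose protein is controlled mainly by degradation, fell by 0.39 in midbrain, measured -0.22 ± 0.06 in cortex without a call, and had no called difference (-0.16 ± 0.09).

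Promoter sequences are shown to set the letters that HIF binds beside 3 genes with a larger cortex response (Slc16a3, Bnip3, Ciart), 1 that rose in both regions (Adm) and 1 that rose in midbrain without a called cortex response (Crispld2). They are RefSeq promoter windows of build GRCm38.p6, from 250 bases before to 50 after the annotated start, 5′ to 3′ on the gene's strand. Capitals mark ACGTG and GCGTG on either strand (CACGT and CACGC on the other), and CACGTG counts on both strands. Slc16a3 (chr11:120948817-120949116, plus strand) and Crispld2 (chr8:119992188-119992487, plus strand) follow the naming rule. The rule also gave Gjc3, whose window holds neither ACGTG nor GCGTG, and Adamts14, whose window holds 1 GCGTG. Those windows are not printed. Bnip3 (chr7:138909457-138909756, minus strand), Ciart (chr3:95882179-95882478, minus strand) and Adm (chr7:110627407-110627706, plus strand) were chosen after their values were seen.
Slc16a3: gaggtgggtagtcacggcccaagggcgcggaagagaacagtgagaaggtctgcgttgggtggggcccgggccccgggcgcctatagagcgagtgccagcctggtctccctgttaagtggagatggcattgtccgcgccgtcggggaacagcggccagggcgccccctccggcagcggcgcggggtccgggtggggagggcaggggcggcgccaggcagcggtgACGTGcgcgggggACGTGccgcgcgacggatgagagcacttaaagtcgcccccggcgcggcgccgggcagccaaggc
Bnip3: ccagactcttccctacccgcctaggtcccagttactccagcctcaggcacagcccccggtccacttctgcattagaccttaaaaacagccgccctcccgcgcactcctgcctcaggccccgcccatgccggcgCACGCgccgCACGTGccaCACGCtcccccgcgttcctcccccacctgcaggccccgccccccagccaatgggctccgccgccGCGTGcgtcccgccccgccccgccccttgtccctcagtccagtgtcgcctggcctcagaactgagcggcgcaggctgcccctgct
Ciart: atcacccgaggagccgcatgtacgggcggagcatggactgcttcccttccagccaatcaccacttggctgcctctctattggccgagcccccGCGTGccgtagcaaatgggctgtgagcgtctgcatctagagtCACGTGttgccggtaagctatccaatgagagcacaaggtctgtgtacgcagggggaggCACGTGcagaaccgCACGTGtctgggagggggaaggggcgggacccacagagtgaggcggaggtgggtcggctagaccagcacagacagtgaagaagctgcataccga
Adm: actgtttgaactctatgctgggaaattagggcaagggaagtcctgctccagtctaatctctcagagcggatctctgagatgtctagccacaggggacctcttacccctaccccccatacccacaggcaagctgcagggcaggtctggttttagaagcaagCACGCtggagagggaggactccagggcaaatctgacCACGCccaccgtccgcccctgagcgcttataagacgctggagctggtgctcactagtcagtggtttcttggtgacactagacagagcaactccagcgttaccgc
Crispld2: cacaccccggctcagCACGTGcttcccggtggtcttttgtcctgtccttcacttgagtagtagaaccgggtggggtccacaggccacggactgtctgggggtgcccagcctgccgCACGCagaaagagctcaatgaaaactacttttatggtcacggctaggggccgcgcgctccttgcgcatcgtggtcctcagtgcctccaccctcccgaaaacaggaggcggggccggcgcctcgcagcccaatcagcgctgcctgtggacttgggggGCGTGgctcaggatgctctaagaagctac

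Slc16a3 holds ACGTG 27 and 14 bases before the start. Bnip3 holds 1 CACGTG and 3 matches to GCGTG, and Ciart holds 3 CACGTG, the E-box that clock factors also bind, and 1 GCGTG. Adm, with similar responses in both regions, holds GCGTG 90 and 54 bases before the start, and Crispld2, with no called cortex response, holds 1 CACGTG and 2 GCGTG. Either HIF core was present in 60 of the 77 cortex-raised genes with a promoter entry (77.9%), against 43.8% of all 27025 genes of the table. ACGTG alone was in 50.6% against 19.7%. The 27025 genes were not limited to those measured or expressed here, and a share among genes of like level was not computed. Of the 12 most positive and 12 most negative differences, 5 of 8 and 6 of 9 genes with an entry held a core. A match describes the letters of the window and is neither a site nor a cause.

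A few genes moved in opposite directions in the cultures labelled 13 d. Txnip, which encodes an arrestin that restrains glucose uptake and binds thioredoxin, had values of 10.61, 10.68 and 10.68 in midbrain at 21% O2 and 9.40, 9.20 and 9.48 at 3% O2, a fall of 1.29 (SE 0.24). In cortex it rose by 1.10 ± 0.24, from 7.86, 7.98 and 7.83 to 8.86, 9.04 and 9.06. The oxygen levels did not overlap in either region, and the difference was -2.39 ± 0.34 (adjusted p = 9.94e-05, limma). Its relative Arrdc4 fell by 1.03 in midbrain, measured 0.49 ± 0.19 in cortex without a call and differed by -1.52 ± 0.26. In the 48 h version neither was called, Txnip at -0.43 (adjusted p = 0.56) and Arrdc4 at -0.49 (adjusted p = 0.335, limma).

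Minar2 fell by 0.66 in midbrain and rose by 0.83 in cortex (difference -1.49 ± 0.13). In the other direction, Ccng1, the p53 target cyclin G1, had 12.19, 12.21 and 12.34 in midbrain at 21% O2 and 12.77, 12.62 and 12.75 at 3% O2, but 11.66, 11.53 and 11.51 falling to 11.09, 11.13 and 11.22 in cortex. The responses of 0.47 ± 0.07 and -0.42 ± 0.07 were both called, with a difference of 0.89 ± 0.10 (adjusted p = 7.18e-06). Lrrc58 moved likewise by 0.26 and -0.21 (difference 0.48 ± 0.06). In the 48 h version the differences were 0.38 for Ccng1, 0.29 for Lrrc58 and -0.50 for Minar2, all called. For Ccng1 and Minar2 these were smaller in size than the midbrain response. Both genes thus moved in the midbrain direction in cortex labelled 48 h. Mtf1, the metal-responsive transcription factor of the same list as Txnip, differed by 0.43 ± 0.08.

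**Figure D3:**
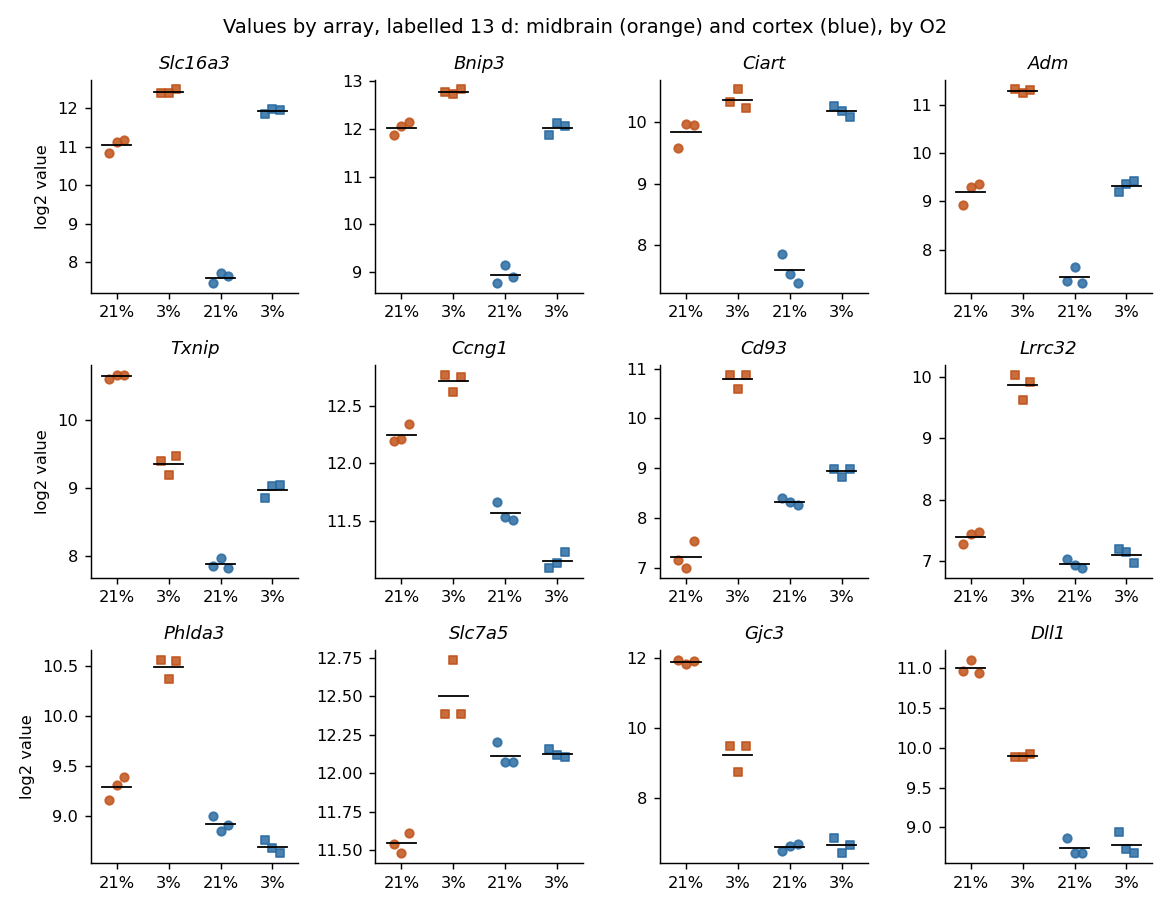
Log2 value of every array (y axis) for 12 genes by oxygen level (x axis), midbrain in orange and cortex in blue, with circles for 21% O2, squares for 3% O2 and a bar at each group mean of 3 arrays. Slc16a3, Bnip3 and Ciart step up mainly in cortex, Adm in both, Txnip and Ccng1 in opposite directions, and the last 6 genes move mainly in midbrain.

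Beyond the hypoxia genes, the 12 most positive differences were all midbrain rises without a called cortex response. Cd93, a cell surface receptor best known from endothelium, went from 7.16, 7.00 and 7.53 to 10.88, 10.60 and 10.87 in midbrain, 11.7-fold. In cortex its values were 8.40, 8.31 and 8.27 at 21% O2 and 8.99, 8.83 and 8.99 at 3% O2, a response of 0.61 ± 0.32 that was not called although the arrays did not overlap. The difference was 2.94 ± 0.45 (adjusted p = 0.000203, limma), and 1.35 in the 48 h version, not called (adjusted p = 0.0823).

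Lrrc32, which carries latent TGF-beta to the cell surface, rose from 7.27, 7.43 and 7.47 to 10.03, 9.62 and 9.91 in midbrain, with 7.03, 6.94 and 6.88 against 7.20, 7.15 and 6.96 in cortex. Its difference of 2.31 ± 0.15 had an adjusted p of 2.71e-08, and the cortex groups overlapped. The secreted protein gene Crispld2 (2.19 ± 0.15, adjusted p = 4.37e-08) was similarly tight. The other members of the 12 were Angpt2, a vascular ligand (2.55 ± 0.51), Apod, a lipid carrier (2.53 ± 0.65), the metalloprotease genes Adamts14 (2.43 ± 0.29) and Adamts1 (2.11 ± 0.22), the matrix genes Postn (2.39 ± 0.51) and Npnt (2.07 ± 0.47), the collagen hydroxylase P3h2 (2.20 ± 0.37), Ifitm3 (2.11 ± 0.35), a membrane protein of the interferon response, and Pdxk, pyridoxal kinase (2.03 ± 0.21). The 48 h version ended the calls of Angpt2 (0.67), Postn (1.52), P3h2 (0.66), Ifitm3 (0.47) and Npnt (0.75) as well as that of Cd93; the other 6 kept theirs.

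Called differences among matrix genes were mostly positive. Of 33 other matrix genes and enzymes, 13 rose and 2 fell in midbrain. The difference was more positive for 9 and more negative for 2 (33.3% called, 14.2% over all genes, median 0.55). The membrane protease Mmp14 differed by 1.47 ± 0.17 and the protease inhibitor Timp2 by -0.87 ± 0.14. The counts were 15 and 3 in the fit of the 12 compared arrays, 14 and 3 with the replicate block and 4 and 0 in the 48 h version, where Timp2 lost its call (-0.05). Among the collagens, Col12a1 differed by 1.88 ± 0.37 and Col18a1 by 1.46 ± 0.30. Of 23 collagens, 14 rose in midbrain, but 3 differences were called, all positive (median 0.30), or 13% against 14.2% over all genes (7% more positive). That count rose to 6 without replicate 2 of midbrain at 3% O2, and to 10 both in the fit of the 12 compared arrays and with the replicate block; in the 48 h version it was 1, and Col12a1 lost its call (1.18). Of 23 TGF-beta ligands, carriers and targets, 7 differences were positive and 1 negative (34.8% called), and 3 and 1 in the 48 h version. Smad3, a signal transducer, differed by 0.94 ± 0.17 and Tgfb3 by -0.80 ± 0.14. Limma called none of these 3 lists' members in cortex, where 0.572% of all genes were called. At an unadjusted p under 0.05 there, 0 TGF-beta genes, 1 collagen and 1 other matrix gene passed. Over all 19938 genes, 718 were higher and 751 lower at that limit.

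Some markers of mesenchymal and vascular cells rose in midbrain alongside these genes. The mean log2 value of 19 pericyte, fibroblast and meninges markers was 6.95 to 6.97 in midbrain at 21% O2, 7.34 to 7.58 at 3% O2 and 6.63 to 6.74 in all cortex arrays, and 9 rose and 1 fell in midbrain. Their difference was called for 2, both positive. This is 10.5% of the list, where over all genes 14.2% were called, 7% more positive. The count was 9 in the fit of the 12 compared arrays and 7 with the replicate block. It was 4 without replicate 2 of midbrain at 3% O2 and 1 in the 48 h version. All these calls were positive. The mean of 16 endothelial markers, a list that includes Cd93, went from 6.78 to 6.87 at 21% O2 to 7.27 to 7.32 at 3% O2 in midbrain and was 6.69 to 6.81 in cortex, with 5 rising in midbrain. Their called differences, all positive, numbered 1 (6.25% of the list), but 4 in the fit of the 12 compared arrays and 3 with the replicate block. They numbered 2 without replicate 2 of midbrain at 3% O2 and 0 in the 48 h version. In bulk RNA, more cells of a type and more RNA per cell cannot be told apart, and the part of these cells in the matrix and vascular results was not tested. None of the 17 microglia and macrophage markers and none of the 4 erythroid markers was called in either response or in the difference by limma, and 0 had an unadjusted p under 0.05.

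Targets of p53 had the highest share of called differences among lists of 10 or more members. In the fit of the 12 compared arrays the cell cycle list had a larger share (31 of 39, against 15 of 22). So did the other HIF targets, the EGF and FGF list and the circadian clock list. Of 22 measured targets, 13 rose and 1 fell in midbrain, and 1 fell in cortex. At an unadjusted p under 0.05, 6 were lower and 0 higher in cortex, against 751 lower and 718 higher of all 19938 genes. The difference was more positive for 14 and more negative for 1 (68.2% called, 14.2% over all genes), with a median of 0.59. Phlda3, an inhibitor of AKT signalling, went from 9.16, 9.31 and 9.39 to 10.56, 10.37 and 10.54 in midbrain and from 9.00, 8.85 and 8.92 to 8.76, 8.68 and 8.63 in cortex. The midbrain rise was 1.20 ± 0.09, the cortex response of -0.23 ± 0.09 was not called, and the difference was 1.43 ± 0.12 (adjusted p = 5.20e-07, limma). Eda2r, a death receptor gene, differed by 1.61 ± 0.18 and Mdm2, the ligase that degrades p53, by 0.43 ± 0.11, the last not called in the 48 h version (0.14). Cdkn1a was not analysed here.

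Called differences among stress response and amino acid genes were mostly positive. Of 28 genes of the integrated stress and unfolded protein response, 15 rose and 2 fell in midbrain and 1 rose in cortex. The 11 called differences (39.3%, against 14.2% over all genes) were positive (list median 0.34). A further 2 were negative at an unadjusted p under 0.05 without being called. Mthfd2, a mitochondrial folate enzyme, had 7.77, 8.00 and 8.28 at 21% O2 and 9.24, 9.96 and 9.43 at 3% O2 in midbrain, against 10.27, 10.34 and 10.14 and then 9.96, 10.05 and 10.06 in cortex. The difference was 1.76 ± 0.29 (adjusted p = 0.00038, limma), and the cortex response of -0.23 ± 0.20 was not called. Aldh18a1, of proline synthesis, differed by 0.75 ± 0.12, the transcription factor gene Cebpb by 0.40 ± 0.08 and Ddit3, the stress factor CHOP, by 0.45 ± 0.13, a call lost in 4 of the 12 refits without 1 array. In the 48 h version none of these 4 was called, Mthfd2 at 0.47, Aldh18a1 at 0.19, Cebpb at -0.04 and Ddit3 at 0.20.

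Of 19 amino acid transporters, 10 rose and 1 fell in midbrain, with 7 positive differences and 1 negative (42.1% called, 14.2% over all genes). Limma called 0 in cortex (0.572% over all genes), with 1 at an unadjusted p under 0.05. Slc7a5, the large neutral amino acid transporter, went from 11.54, 11.48 and 11.61 to 12.38, 12.74 and 12.39 in midbrain and had 12.20, 12.07 and 12.07 and then 12.16, 12.12 and 12.10 in cortex. The difference was 0.94 ± 0.12. Its partner chain Slc3a2 differed by 0.64 ± 0.08, the glutamine transporter Slc38a2 by 0.77 ± 0.13 and the cystine transporter Slc7a11 by 1.02 ± 0.23. In replicate 2 of midbrain at 3% O2, Slc7a11 stood at 9.33 while both other arrays stood at 8.53. Of these 4 genes, Slc38a2 alone kept call and direction in the 48 h version (0.56); Slc7a5 (0.26) and Slc3a2 (0.13) were not called, and Slc7a11 had a called -1.63.

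Of 24 targets of NRF2, the regulator of antioxidant genes, 11 rose and 1 fell in midbrain. The 10 called differences (41.7%, against 14.2% over all genes) were all positive. The fit of the 12 compared arrays called 11 positive and 2 negative, the replicate block 9 and 1, and the 48 h version 1 and 1. The glutathione synthesis genes Gclc and Gclm differed by 1.07 ± 0.16 and 0.60 ± 0.10, and the efflux transporter Abcc4 by 1.01 ± 0.16; none of the 3 was called in the 48 h version (0.23, 0.07 and 0.27). Cholesterol synthesis genes rose in midbrain for 12 of 20 and in cortex for 1, where 15 had an unadjusted p under 0.05. The median responses were 0.38 and 0.28, and 2 differences were called (10%, against 14.2% over all genes). Hmgcs1, of that list, had responses of 0.22 and 0.23, neither called. The cholesterol exporter Abca1 fell by 2.09 in midbrain and differed by -1.62 ± 0.34, or by an uncalled -0.37 in the 48 h version.

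In the growth factor, immediate early and cell cycle lists, midbrain rises outnumbered midbrain falls. Of 23 genes of EGF and FGF signalling and feedback, 14 rose and 3 fell in midbrain. The 11 called differences (47.8%, against 14.2% over all genes) were all positive (list median 0.51). The fit of the 12 compared arrays called 13 positive and 4 negative, the replicate block 12 and 3, and the 48 h version 3 and 1. None was called in cortex by limma (0.572% over all genes), and 1 had an unadjusted p under 0.05 there. Spry1, a feedback inhibitor of growth factor receptors, went from 9.67, 9.88 and 9.71 to 11.24, 11.57 and 11.41 in midbrain and stayed between 10.53 and 10.66 in all 6 cortex arrays, a difference of 1.60 ± 0.25 (adjusted p = 0.000286, limma) that the 48 h version did not call (0.69). The inhibitor Spred2 differed by 0.73 ± 0.10 and the target transcription factor Etv4 by 1.03 ± 0.13. Of 24 immediate early genes, 7 rose and 2 fell in midbrain. The 5 called differences (20.8%, against 14.2% over all genes) were positive. Ier3 differed by 2.00 ± 0.23, Dusp1 by 1.10 ± 0.16 and Klf6 by 0.81 ± 0.16. The fit of the 12 compared arrays called 8 positive and 2 negative, and the 48 h version 3 and 2, with Klf6 not called (0.38).

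Of 39 cell cycle genes, 18 rose in midbrain, and 9 differences were called (23.1%, against 14.2% over all genes), all positive (list median 0.38). Limma called 0 in cortex (0.572% over all genes). There 4 were lower at an unadjusted p under 0.05, against 751 of 19938 over all genes. The count was 31 in the fit of the 12 compared arrays and 19 with the replicate block. Of the cyclin D genes, Ccnd2 rose by 1.38 ± 0.11 in midbrain and differed by 1.50 ± 0.16, Ccnd1 differed by 1.36 ± 0.24, and the transcription factor E2f1 by 0.94 ± 0.19. The difference of the proliferation marker Mki67 was not called (0.28 ± 0.15, adjusted p = 0.282), except with array weights (0.32, adjusted p = 0.029, limma).

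The circadian clock list held calls in both directions. Of 18 members, 12 rose in midbrain and 1, Ciart, in cortex. Of the differences, 8 were positive and 1 negative (50% called, 14.2% over all genes, median 0.50). The repressor Nr1d1 differed by 1.61 ± 0.24, the output factor Hlf by 1.68 ± 0.19 and Arntl, the core activator BMAL1, by 0.63 ± 0.10, whereas Ciart had -2.07 as given above. Id1, an inhibitor of differentiation, and the ligand Bmp7 both differed by 1.32, with standard errors of 0.29 and 0.22; Id1 was not called in the 48 h version (0.72). Of 33 respiratory chain and ATP synthase genes, 4 differences were positive and 1 negative. This is 15.2% of the list, close to the 14.2% called over all genes. Cytochrome c (Cycs) differed by 0.47 ± 0.10, and dimmer probe sets of it gave 0.55 and an uncalled 0.18.

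**Figure D4:**
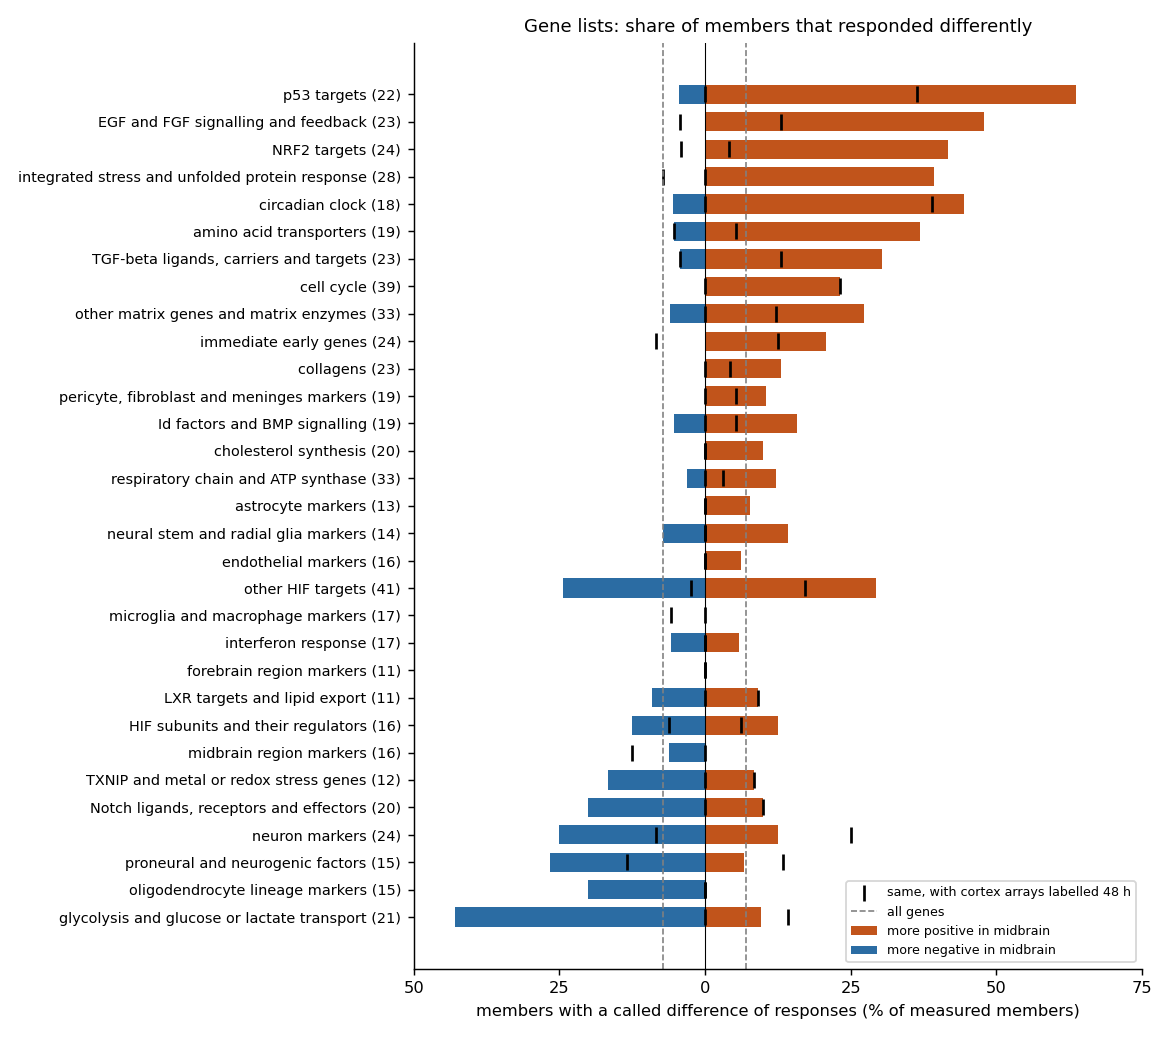
Share of the measured members of each list (x axis, %; members in brackets) with a called difference, more positive in midbrain to the right (orange) and more negative to the left (blue). Dashed lines mark the shares over all genes, 7% and 7.22%, and black ticks the shares when the cortex arrays labelled 48 h take the place of those labelled 13 d. The p53 list reaches farthest to the right and the glycolysis list farthest to the left.

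The most negative differences outside the hypoxia genes were midbrain falls. Gjc3, a connexin of oligodendrocyte-lineage cells, had 11.96, 11.83 and 11.91 in midbrain at 21% O2 and 9.48, 8.73 and 9.47 at 3% O2, 6.38-fold lower. In cortex it lay between 6.40 and 6.85 in all 6 arrays, and the difference was -2.72 ± 0.50 (adjusted p = 0.00103, limma). Gpr17, a receptor of oligodendrocyte precursors, differed by -2.09 ± 0.59 and Pdgfra, the precursors' growth factor receptor, by -1.52 ± 0.43; these calls were lost in 3 and 4 of the 12 refits without 1 array, with adjusted p up to 0.0594 and 0.0631. Replicate 2 of midbrain at 3% O2 was the lowest array for all 3 genes. Without it 1 of the 15 oligodendrocyte lineage markers had a called difference, negative, in place of 3. Those 3 are 20% of the list, against 14.2% called over all genes. The fit of the 12 compared arrays and the replicate block each called 6 negative and 2 positive, and the 48 h version called 0, with Gjc3 at -1.38, Gpr17 at -1.51 and Pdgfra at -0.95. The mean of the list was 9.93 to 10.02 in midbrain at 21% O2, 9.26 to 9.66 at 3% O2 and 7.95 to 8.19 in cortex.

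The rest of the 12 most negative were Prkcq, a protein kinase C (-2.22 ± 0.26), Gabbr2, a GABA-B receptor subunit (-2.19 ± 0.30), Sncaip, a synuclein-binding protein gene (-2.06 ± 0.12), Socs2, a suppressor of cytokine signalling (-2.05 ± 0.25), and the actin gene Actc1 (-2.02 ± 0.27). All 5 fell in midbrain by between 1.94 and 2.18 and had cortex responses within 0.11 of 0. A dimmer probe set of Socs2 moved much less, with a midbrain response of -0.45 and a called difference of -0.53.

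In the Notch and neurogenic lists more genes fell than rose in midbrain. Of 20 Notch ligands, receptors and effectors, 2 rose and 8 fell in midbrain. Of the differences, 4 were negative and 2 positive (30% called, 14.2% over all genes, median -0.15). The counts were 6 and 3 in the fit of the 12 compared arrays and with the replicate block, and 0 and 2 in the 48 h version. The ligand gene Dll1 went from 10.97, 11.11 and 10.94 to 9.89, 9.88 and 9.92 in midbrain and stayed between 8.67 and 8.94 in cortex, a difference of -1.15 ± 0.16 (adjusted p = 7.98e-05, limma). Dll3 differed by -1.89 ± 0.38 and Mfng, a glycosyltransferase that modifies Notch, by -1.44 ± 0.14. None of the 3 was called in the 48 h version (0.01, -1.06 and -0.16).

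The Notch effectors split. Hes5 fell by 1.50 in midbrain and differed by -1.52 ± 0.32, whereas Hes1 rose by 0.96 and differed by 0.96 ± 0.29, a call lost in 8 of the 12 refits without 1 array (adjusted p up to 0.0763). Both calls were lost in the 48 h version (-0.21 and 0.03). Of 15 proneural and neurogenic factors, 1 rose and 4 fell in midbrain. Of the differences, 4 were negative and 1 positive (33.3% called, 14.2% over all genes). Neurog2 differed by -0.61 ± 0.08, Sox4 by -0.79 ± 0.09 and Gadd45g by -1.25 ± 0.12, of which Sox4 was not called in the 48 h version (-0.12).

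Of 24 neuron markers, 4 rose and 7 fell in midbrain. Of the differences, 6 were negative and 3 positive (37.5% called, 14.2% over all genes). The list median was -0.04, with values from -1.23 to 0.84, and the 3 members with the smallest p were negative. The neurofilament-like gene Ina differed by -1.23 ± 0.19, Stmn3 by -1.08 ± 0.16 and Syn1 by -0.65 ± 0.10. All 3 stood at higher levels in every cortex array than in any midbrain array, and Ina was not called in the 48 h version (-0.45). A dim probe set of Stmn3 (mean 5.76) gave an uncalled -0.02. The difference was not called for the stem cell genes Sox2 (-0.05 ± 0.10) and Nes (0.00 ± 0.22), for Tubb3 of neurons (-0.58 ± 0.28, called with the replicate block at an adjusted p of 0.0121 in limma), Gfap of astrocytes (-0.62 ± 0.49) or Olig2 of the oligodendrocyte lineage (-0.07 ± 0.20). Limma called no difference among the 11 forebrain markers (0 at an unadjusted p under 0.05) and 1, negative, among the 16 midbrain markers.

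Setting midbrain against the cortex arrays labelled 48 h changed much of this picture. The count of called differences fell from 3162 to 1540 (740 positive, 800 negative), 1006 of the 3162 kept call and direction, and 253 turned sign. The glycolysis list went from 2 positive and 9 negative differences to 3 positive and no called negative. Slc16a3 and Pdk1 of that list passed to the other side of 0, as did Bnip3 of the other HIF targets. The p53 list kept 8 positive differences and the clock list 7, and the cell cycle list also had 9, but the stress response list went from 11 positive to 2 negative. NRF2 targets went from 10 to 1 positive and amino acid transporters from 7 to 1. The neuron marker list went from 3 positive and 6 negative to 6 and 2. Both versions use the same 6 midbrain arrays.

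**Figure D5:**
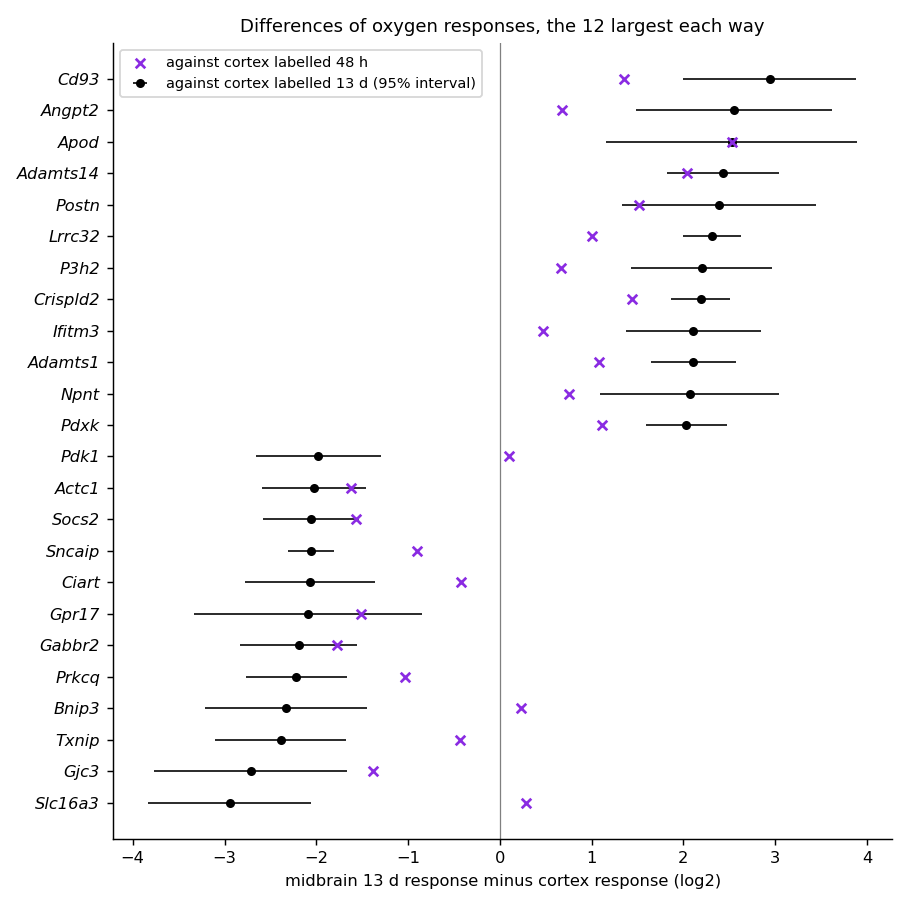
Midbrain 13 d response minus cortex response (x axis, log2) for the 12 most positive and 12 most negative genes. Black points with 95% intervals use the cortex arrays labelled 13 d and crosses those labelled 48 h. Apod, Adamts14, Gabbr2 and Actc1 lie close in both versions, while Slc16a3, Bnip3 and Pdk1 move to the other side of 0.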

How the data were processed

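Each array received labelled cDNA made from the total RNA of 1 culture well. The authors deposited a table of log2 values, described as normalized per the labels; the log2 scale was read from the values, and the background correction and normalization are not given in the sources used here. A change common to every gene of an array would thus go unseen. Arrays have no depth, and their number limits the precision.

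Limma 3.58.1 (R 4.3.3) was fitted with 1 mean for each of the 8 groups, using the 24 arrays (16 residual degrees of freedom), then eBayes; tests were two-sided and adjusted by Benjamini-Hochberg over 23410 probe sets at 0.05. Errors are standard errors with n = 3 arrays per group and a spread pooled over the 24 arrays. Of these probe sets 21789 had 1 symbol, 1621 had several and were not named, and 5446 further probe sets have no symbol here. Entrez numbers matched 21698 in the GRCm38.p6 gene table. A gene is the probe set with the highest mean, which gave 19938 genes; levels of different genes were not compared.

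Named genes were the 12 largest differences each way, genes moving oppositely or alike, the list members with the smallest p and a panel, without clone-type and sex-linked symbols; those printed are part of this set, and exceptions are marked. The members and the 34 lists were chosen with earlier results of these data known, and some lists share members. The model was tested on simulated data.

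Replicate numbers were checked for pairing. Same-numbered midbrain arrays at 3% and 21% O2 deviated together (r = 0.12, 0.42 and 0.31, each above the limit of 0.1), although number 1 at 21% or 3% O2 correlated as well with an array of another number (0.17 and 0.16). In cortex they did not (-0.01, 0.23 and -0.37). The labels are silent on what a shared number means, so the pairing rests on the data. No pair of replicates was a duplicate. Tried in turn were the replicate block, array weights, a variance trend, median centring, quantile normalization, all or only brighter probe sets, the compared arrays alone, the omission of each array, and the cortex arrays labelled 48 h.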

Additional observations from a re-analysis of the deposited data

Results flagged for a closer look

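The difference between the regions' responses was tested in the model itself, and 1570 probe sets were more positive and 1592 more negative in midbrain. In 4 of the named genes both responses were called with opposite signs. Their differences were 0.89 for Ccng1 and 0.48 for Lrrc58, which rose in midbrain, and -2.39 for Txnip and -1.49 for Minar2, which fell there. Against the cortex arrays labelled 48 h the difference of Txnip was -0.43 and not called, and the differences of the other 3 kept call and direction. The opposite movement itself did not hold there for Ccng1 and Minar2, whose cortex responses had the sign of midbrain.

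Probe sets without a gene symbol, which the comparison did not use, also held differences. Of 5446, 251 were called in limma over all probe sets (4.61%), with 102 more positive and 149 more negative in midbrain.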

How the results depend on the processing

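The count of called differences was 3162. It was 6745 with array weights, 4873 in the fit of the 12 compared arrays and 1540 against the cortex arrays labelled 48 h. It was between 2910 and 3467 under all probe sets, brighter probe sets, quantile normalization, median centring and the variance trend, and between 2339 and 3260 without any 1 array. With the replicate block, that is the pairing by replicate number, it was 3712, and 2924 of the 3162 were kept; the block ended no call of the 92 named genes with a called difference. The midbrain count of 5584 became 9494 with array weights, 6052 with the replicate block and 4418 to 5400 without any 1 array. The cortex count of 142 became 815 with array weights (56.9% higher, against 89.4%), 348 in the fit of the compared arrays alone (78.7% higher), 170 with the block and 68 to 110 without any 1 array. The fit of the 12 compared arrays has the same log2 differences and takes its spread from those arrays alone. The SD of the cell cycle list mean (3% and 21% O2) was 0.05 and 0.04 in cortex labelled 13 d. In midbrain at 13 d it was 0.06 and 0.04. It was 0.14 and 0.26 in cortex labelled 48 h and 0.04 and 0.26 in midbrain at 48 h. Why these counts moved was not tested.

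Of the 92 named genes, 84 kept their call without any 1 array. All probe sets, quantile normalization and median centring each ended 2 calls, among Ldha, P4ha1 and Slc2a1. Against the cortex arrays labelled 48 h, 43 kept call and direction, 38 kept the direction alone and 11 turned sign. These were Slc16a3 (0.29), Bnip3 (0.23), Pdk1 (0.10), Egln3 (0.13), Slc2a1 (0.47), Ldha (0.21), Aldoa (0.048), P4ha1 (0.16), Dll1 (0.0054), Cebpb (-0.041) and Slc7a11 (-1.63). Uncalled differences that changed sign there were Vegfa (0.75), Tubb3 (0.076), Gfap (0.45), Sox2 (0.025), Nes (-0.14) and Hmgcs1 (0.25). Nes was also -0.026 under quantile normalization, and Hmgcs1 0.012 under median centring and 0.074 with array weights. Without any 1 array, the uncalled values of Nes spanned -0.056 to 0.089, Hmgcs1 -0.056 to 0.079, Sox2 -0.11 to 0.0067 and Olig2 -0.15 to 0.0024. With the replicate block Tubb3 gained a call (-0.58). List counts that moved are given with their results or here, as positive and negative calls. Genes around TXNIP went from 1 and 2 to 1 and 5 in the fit of the compared arrays and with the block. Astrocyte markers went from 1 and 0 to 1 and 4 and to 1 and 3 in those fits. Neural stem and radial glia markers went from 2 and 1 to 1 and 3 in the first and 2 and 2 in the second. The respiratory chain went from 4 and 1 to 4 and 0 and to 3 and 0, Id and BMP genes from 3 and 1 to 4 and 2 and to 4 and 1, and HIF subunits from 2 and 2 to 3 and 3 and to 3 and 2. Cholesterol synthesis went from 2 and 0 to 2 and 2 and to 1 and 0, midbrain markers from 0 and 1 to 0 and 2 in both, LXR targets from 1 and 1 to 2 and 1 in both, and interferon genes from 1 and 1 to 1 and 2 in the first. Against the cortex arrays labelled 48 h, TXNIP, respiratory chain, Id and BMP, and LXR genes had 1 positive call each and no negative, HIF subunits 1 each way, proneural factors 2 each way, midbrain markers 2 negative and microglia markers 1 negative. Astrocyte, neural stem, cholesterol, interferon and choroid plexus lists had 0 there.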
